A study of Mus musculus with 10 samples.

Results

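The genes of the proteasome were followed in RNA sequencing of mouse dorsal skin, with the inducible catalytic subunits Psmb8, Psmb9 and Psmb10 set against the constitutive subunits they replace. Members were all entries of the deposited gene table whose symbol begins with Psm, a letter from a to g and a digit, which gave 50 of 24543 entries. The skin came from C57BL/6 mice of 2 genotypes, labelled Dlx4-WT (WT) and Dlx4-KO (KO), at postnatal day 1 (P1) and postnatal day 60 (P60). There were 3 WT and 3 KO libraries at P1, and 2 WT and 2 KO libraries at P60. The nature of the deleted allele and the relation of the animals to litters are not given in the sources used here. Dlx4 is a homeobox transcription factor gene. Expression was given as RPKM, the reads of a gene scaled to its length and to the size of its library.

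The proteasome is the barrel-shaped protease that breaks down proteins tagged with ubiquitin. Its 20S core is built of outer rings of alpha subunits and inner rings of beta subunits, and the 19S cap of ATPases and non-ATPase subunits recognises, unfolds and feeds in substrates. In cells exposed to interferon gamma, and at rest in many leukocytes, newly made cores take up Psmb8, Psmb9 and Psmb10 in place of Psmb5, Psmb6 and Psmb7, and this immunoproteasome cuts peptides suited to MHC class I molecules. The genes Psme1 and Psme2 encode the PA28 activator, a cap that is induced by the same cytokine.

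The libraries held 36131011 to 74916106 alignments. Dlx4 reached 2.93, 3.78 and 3.42 RPKM in WT and 1.77, 2.45 and 1.62 RPKM in KO skin at P1, and 0 to 0.125 RPKM in all P60 libraries, so that it checks no label at P60. The ages were sequenced in separate runs, P1 in one and P60 in the other, and the effects of age and of run cannot be told apart. All 4 P60 libraries carried Y-linked transcripts (Eif2s3y at 22.3 to 26.9 RPKM), whereas at P1 KO replicate 2 did so (35.0 RPKM) and the other 5 libraries held 0 to 0.0164 RPKM. Sex, as read from these transcripts, thus went with age in all libraries but KO replicate 2 at P1. The effects of age and of sex can therefore hardly be told apart. Markers of several cell types were read from the skin: all 8 keratinocyte genes examined, among them Krt5 and Krt14, were above the filter, and 0 of the 52 cell type markers had a value of 0 in any library. In whole tissue, fewer cells of a type and less RNA per cell cannot be told apart.

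Of the 50 members, 47 had at least 1 RPKM in at least 2 libraries and were tested. The other 3 were Psma8, the alpha subunit of germ cells (0 to 0.128 RPKM), Psmb11, the catalytic subunit of the thymic cortex (0.224 to 0.382 RPKM), and Psme2b (0.138 to 0.970 RPKM), a near copy of Psme2 whose reads may be shared with it. The tested members held the 7 widely expressed alpha subunits, 4 structural and 3 constitutive catalytic beta subunits, 3 induced catalytic subunits, 6 ATPases and 11 non-ATPase subunits of the 19S cap, 3 chaperones of cap assembly, 4 chaperones of core assembly, 4 activator genes and Psmf1, which encodes the inhibitor PI31. The remaining one, Psmc3ip, matches by its symbol alone: it encodes a partner of the recombinases of meiosis and is no proteasome subunit.

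The 14 constitutive core subunits lay within a narrow range of RPKM in every library, as the highest was 2.02 to 3.72 times the lowest. The structural subunit Psmb4 was the highest in all 10 libraries, at 116 to 129 RPKM at P1 and 107 to 140 RPKM at P60. The lowest was Psma3 in each P1 library (42.8 to 58.0 RPKM) and Psma5 in each P60 library (35.0 to 39.3 RPKM). The induced subunits lay far below them at P1, with 1.59 to 6.95 RPKM over the 3 genes and 6 libraries. All 50 members together took 0.656% to 0.784% of the summed RPKM at P1 and 0.551% to 0.608% at P60.

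The induced subunits were the members with the largest age difference. Psmb8, the inducible chymotrypsin-like subunit, had 3.52, 5.34 and 6.27 RPKM in WT and 4.73, 4.22 and 2.81 RPKM in KO skin at P1. At P60 it had 23.5 and 25.9 RPKM in WT and 31.1 and 31.6 RPKM in KO skin. All 4 P60 libraries thus lay above all 6 P1 libraries, and at P60 both KO libraries lay above both WT libraries. The latter order was common, as 42.7% of all tested entries had it. The share of all entries with the ages apart is not given here. Psmb9, the inducible subunit that takes the place of the caspase-like Psmb6, had 1.69, 2.59 and 3.70 RPKM in WT and 1.98, 1.87 and 1.59 RPKM in KO skin at P1. It had 16.6 and 15.3 RPKM in WT and 21.1 and 22.1 RPKM in KO skin at P60. Psmb10, which takes the place of the trypsin-like Psmb7, had 5.10, 5.58 and 6.95 RPKM in WT and 6.66, 5.40 and 4.47 RPKM in KO skin at P1, and 14.4 and 18.8 RPKM in WT and 19.4 and 21.4 RPKM in KO skin at P60. Both genes showed the same order as Psmb8, with P60 apart from P1 and, within P60, KO above WT.

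**Figure D1:**
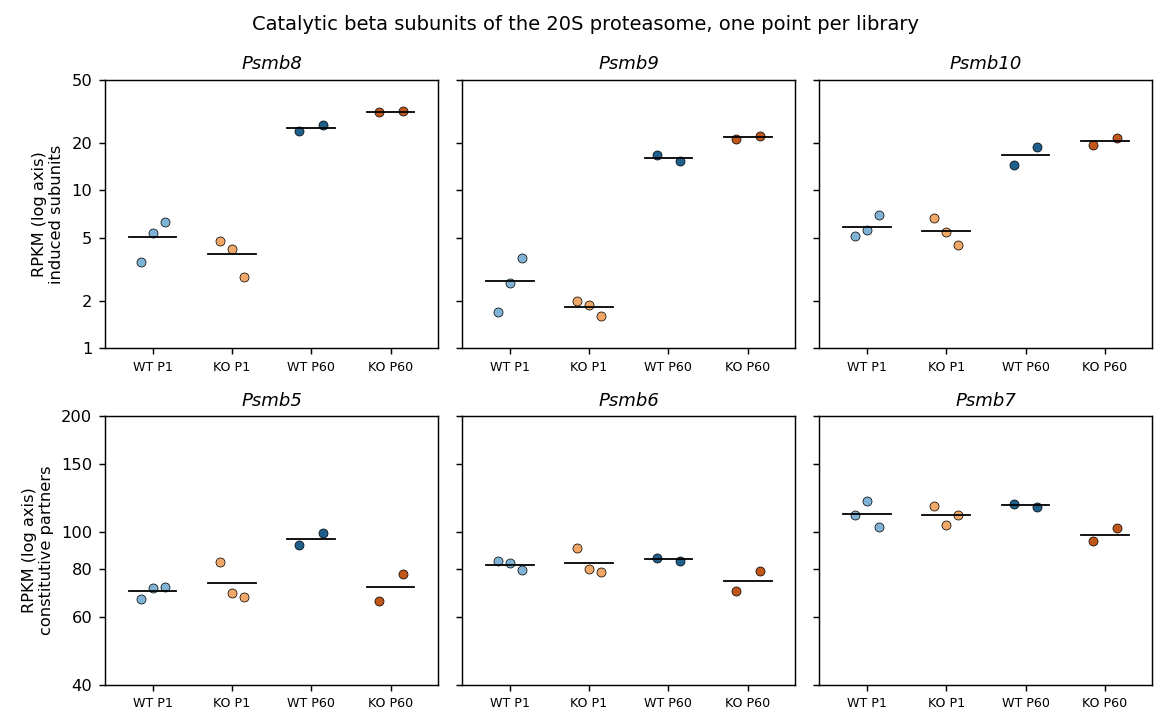
RPKM (log axes) of the induced catalytic subunits (upper row) and of their constitutive partners (lower row) in each library, by group, with a line at the group mean. The induced subunits lie at 1.59 to 6.95 RPKM at P1 and at 14.4 to 31.6 RPKM at P60, while the constitutive partners stay between 66.2 and 121 RPKM at both ages.

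In limma on log2(RPKM + 0.5), with adjustment over all 14026 tested entries, all 3 induced subunits rose with age. The differences between P60 and P1, averaged over the genotypes, were 2.84 for Psmb9 (SE 0.16, 7.18-fold, adjusted p = 1.4e-07), 2.55 for Psmb8 (SE 0.16, 5.84-fold, adjusted p = 3.73e-07) and 1.62 for Psmb10 (SE 0.13, 3.06-fold, adjusted p = 1.39e-06). Within WT the log2 differences were 2.43, 2.22 and 1.42, and within KO, from separate libraries, they were 3.26, 2.88 and 1.81. Each passed in each genotype. With median-of-ratios size factors, which bring the median gene of the ages close to each other, the averaged differences were 3.24, 2.96 and 2.03. The male-type newborn, KO replicate 2 at P1, had 4.22 RPKM of Psmb8, 1.87 of Psmb9 and 5.40 of Psmb10, within the range of the other P1 libraries for each gene. A single library cannot separate sex from age, and the part of sex was not tested.

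Psmb8 and Psmb9 lie close together on mouse chromosome 17, in the region of the MHC, at chr17:34197721-34201454 on the plus strand and chr17:34181987-34187764 on the minus strand (GENCODE release M21 on mm10). Psmb10 lies at chr8:105935735-105938444 on the minus strand, Psmb5 at chr14:54614119-54618022 on the minus strand and Psmb6 at chr11:70525367-70527858 on the plus strand. No sequence is given for Psmb7, the partner of Psmb10. For the induced genes and the partners Psmb5 and Psmb6, the 200 bases before the RefSeq start of each (build GRCm38.p6) are given. These bases are on the gene's strand, 5′ to 3′. They span chr17:34197995-34198194 for Psmb8, chr17:34187331-34187530 for Psmb9, chr8:105938393-105938592 for Psmb10, chr14:54617996-54618195 for Psmb5 and chr11:70525157-70525356 for Psmb6. Capitals mark a match to one of 3 patterns: GAAANNGAA for the core of the interferon-stimulated response element, TTCNNNGAA for the gamma-activated site bound by STAT factors, and TGACNNNGC for the core of the antioxidant response element bound by the Nfe2l1 and Nfe2l2 factors.
Psmb8: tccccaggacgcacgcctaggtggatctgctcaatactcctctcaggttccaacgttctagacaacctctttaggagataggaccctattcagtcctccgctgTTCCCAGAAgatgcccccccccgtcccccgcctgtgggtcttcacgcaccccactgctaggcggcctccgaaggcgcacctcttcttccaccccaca
Psmb9: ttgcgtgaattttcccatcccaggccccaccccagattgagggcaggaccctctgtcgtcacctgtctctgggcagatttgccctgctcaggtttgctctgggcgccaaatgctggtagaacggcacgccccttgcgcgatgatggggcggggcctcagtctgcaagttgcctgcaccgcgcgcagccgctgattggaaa
Psmb10: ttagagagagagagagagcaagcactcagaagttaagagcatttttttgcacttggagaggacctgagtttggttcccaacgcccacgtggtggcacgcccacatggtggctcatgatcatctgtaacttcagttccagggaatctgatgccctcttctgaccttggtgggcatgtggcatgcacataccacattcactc
Psmb5: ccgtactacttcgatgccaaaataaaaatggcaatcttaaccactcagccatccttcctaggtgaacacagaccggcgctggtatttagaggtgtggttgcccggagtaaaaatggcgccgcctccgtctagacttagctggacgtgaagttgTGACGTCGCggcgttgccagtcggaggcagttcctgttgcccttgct
Psmb6: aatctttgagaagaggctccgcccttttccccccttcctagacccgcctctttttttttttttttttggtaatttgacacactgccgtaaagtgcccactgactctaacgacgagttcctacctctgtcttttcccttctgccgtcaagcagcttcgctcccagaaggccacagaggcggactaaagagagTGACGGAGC

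The induced Psmb8 held TTCCCAGAA, a gamma-activated site pattern, from position -97 to -89 before its start. The constitutive Psmb5 and Psmb6 held antioxidant response element cores, TGACGTCGC from -47 to -39 and TGACGGAGC from -9 to -1. None of the patterns was found for Psmb9 and Psmb10 in the window of 250 bases before to 50 after the start, which says only that these letters are not in it. For Psmb8, Psmb9, Psmb10 and Psmb5 the outermost GENCODE start lies upstream of the RefSeq start, so that other starts have other windows. Windows of 300 bases were found for 42 of the 50 members, and both strands were searched. The interferon-stimulated core was in 7 of the 42 members (16.7%; Psmb3, Psmb4, Psmc2, Psmd4, Psmd9, Psme1 and Psmg4) against 9.76% of 27025 symbols with a window. In Psme1 the match lay at positions 10 to 18, after the start. The gamma-activated site was in 3 (7.14%; Psmb8, Psmd2 and Psmg1) against 9.55%. The antioxidant core was in 6 (14.3%; Psmb5, Psmb6, Psmc6, Psmd12, Psmd9 and Psme4) against 14.0%. A match is a description of letters and was not tested as a site.

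The constitutive partners differed much less with age than the induced subunits. Their calls hung on the scaling, apart from the rise of Psmb5 within WT. Psmb5, the chymotrypsin-like subunit, had 67.1, 71.7 and 71.8 RPKM in WT and 83.4, 69.5 and 67.6 RPKM in KO skin at P1, and 92.4 and 99.4 RPKM in WT and 66.2 and 77.7 RPKM in KO skin at P60. WT was thus highest at P60, whereas the KO libraries of both ages overlapped. Psmb5 rose by 0.21 on the log2 scale on average (SE 0.08, adjusted p = 0.0383 in limma), by 0.45 within WT (adjusted p = 0.00581), and differed by -0.03 within KO (adjusted p = 0.837). The averaged call ended with quantile normalization (0.18) and without any one of 6 libraries (WT replicates 1 and 2 and KO replicates 2 and 3 at P1, and replicate 2 of each genotype at P60), where the difference was 0.15 to 0.22. Psmb5 rose by 0.64 on average with median-of-ratios size factors, by 0.96 within WT and by 0.32 within KO (adjusted p = 0.0368 in limma). Within WT it also rose with quantile normalization (0.38), so this rise was called under all 3 scalings. Psmb6 had 84.3, 82.9 and 79.5 RPKM in WT and 90.9, 80.1 and 78.6 RPKM in KO skin at P1, and 85.7 and 84.0 RPKM in WT and 70.1 and 79.0 RPKM in KO skin at P60. Psmb7 had 111, 121 and 103 RPKM in WT and 117, 104 and 111 RPKM in KO skin at P1, and 118 and 116 RPKM in WT and 94.5 and 102 RPKM in KO skin at P60. The age differences of Psmb6 and Psmb7 were -0.06 and -0.05 and did not pass, but with median-of-ratios size factors both genes rose, by 0.37 and 0.38.

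A ratio of 2 genes within a library does not change when the whole library is scaled by a factor, though quantile normalization can change it. The share of the induced subunit in each catalytic pair, as a percentage of the summed RPKM, was therefore formed. Psmb8 made up 6.65% ± 1.54 of Psmb8 and Psmb5 in WT and 5.03% ± 0.92 in KO newborns (SD over 3 libraries of each genotype), and 20.5% ± 0.26 in WT and 30.4% ± 2.16 in KO skin at P60 (SD over 2 libraries of each). Psmb9 made up 3.15% ± 1.25 of Psmb9 and Psmb6 in WT and 2.13% ± 0.15 in KO skin at P1, and 15.8% ± 0.59 in WT and 22.5% ± 0.87 in KO skin at P60. Psmb10 made up 5.05% ± 1.11 of Psmb10 and Psmb7 in WT and 4.73% ± 0.77 in KO skin at P1, and 12.4% ± 2.18 in WT and 17.2% ± 0.18 in KO skin at P60. Within P60 the KO libraries lay above the WT libraries in every pair, and within P1 the genotypes overlapped in every pair.

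**Figure D2:**
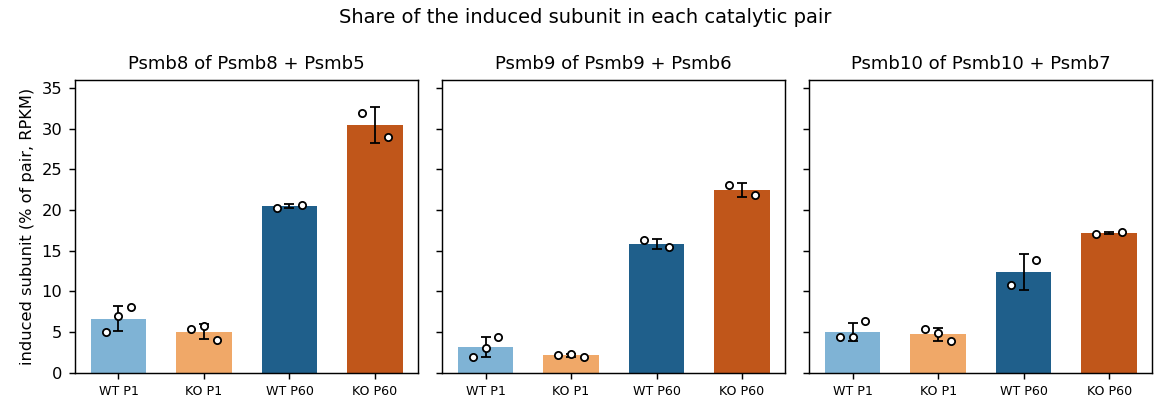
Share of the induced subunit in each catalytic pair (percent of the summed RPKM of the pair), with bars for group means, SD as error bars and a point per library. All 4 P60 libraries exceed all 6 P1 libraries in each pair, with group means of 12.4% to 30.4% at P60 against 2.13% to 6.65% at P1.

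The log2 ratio of induced to constitutive subunit, on RPKM + 0.5, was higher at P60 by 2.34 for Psmb8 over Psmb5 (5.05-fold), by 2.90 for Psmb9 over Psmb6 (7.46-fold) and by 1.66 for Psmb10 over Psmb7 (3.16-fold). Each two-sided exact permutation test over the 10 libraries gave p = 0.00476, the smallest that 210 relabellings allow, and 0.0190 after adjustment over the 12 tests of this family. At P60 the ratio was higher in KO than in WT skin by 0.75, 0.61 and 0.56, in each case with p = 0.333 by the exact test (adjusted p = 0.5), the smallest that 2 against 2 libraries allow. At P1 the differences were -0.38, -0.42 and -0.08, with exact p of 0.3, 0.4 and 0.7 where 0.1 is the smallest possible (adjusted p of 0.5, 0.52 and 0.717). Over both ages, with genotype permuted within each age, the differences were 0.19, 0.10 and 0.24 (exact p of 0.433, 0.717 and 0.3; adjusted p of 0.52, 0.717 and 0.5). The difference of the genotype differences between the ages, a test chosen after seeing the data, was 1.14, 1.03 and 0.64, with exact permutation p of 0.05, 0.0667 and 0.117 (adjusted over the 3 pairs 0.1, 0.1 and 0.117).

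Leukocytes carry the induced subunits, and the values of leukocyte markers are therefore given beside them. The summed RPKM of 16 leukocyte markers was 149 to 282 in the P1 libraries, 714 and 941 in WT and 2073 and 1540 in KO skin at P60. In limma 12 of the 16 rose with age averaged over the genotypes, with 7 higher and 1 lower (Adgre1, -1.12) within WT and 15 higher within KO. Of all tested entries 24.3% rose on average, 20% within WT and 21.6% within KO, while 56% fell within WT. The median marker difference was 0.47 within WT and 1.48 within KO, beside 1.42 to 2.43 and 1.81 to 3.26 for the induced subunits. The markers did not rise alike. Adgre1 had the lowest difference in each genotype (-1.12 within WT and 0.52 within KO) and Cd74 the highest (3.9952 and 5.54). A sum of RPKM weighs the markers of high RPKM most, so it need not follow the median marker. The share of each marker in the sum is not given here. At P60 9 of 16 rose in KO against WT skin with 0 lower, beside 8.21% and 2.91% of all tested entries. The T cell genes Cd3e and Cd2 were the lowest of the list at P1, at 0.223 to 0.854 RPKM and 0.168 to 0.467 RPKM. At P1 WT replicate 3 had both the highest leukocyte sum (282) and the highest Psmb8, Psmb9 and Psmb10, and KO replicate 3 had both the lowest sum (149) and the lowest values of these genes. Between these extremes the order was not shared throughout. WT replicates 1 and 2 had sums of 183 and 182, but Psmb8 at 3.52 and 5.34 RPKM and Psmb9 at 1.69 and 2.59 RPKM. WT replicate 3 also had the highest skeletal muscle sum (9365) and the lowest keratinocyte (9855) and cycling cell (139) sums at P1. At P60 both KO libraries lay above both WT libraries in the leukocyte sum and in Psmb8, Psmb9 and Psmb10. Of all tested entries, 42.7% had this order. Within each genotype at P60 the order was shared only in part. KO replicate 1 had the higher leukocyte sum of the KO libraries but the lower Psmb8, Psmb9 and Psmb10. WT replicate 2 had the higher sum of the WT libraries, with the higher Psmb8 and Psmb10 but the lower Psmb9. The part of leukocytes in these results was not tested.

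Beyond the induced subunits, the members mostly fell with age on the deposited scale. Over all members 8 of 47 rose (17.0%; 24.3% of all tested entries) and 27 fell (57.4%; 57.3% of all tested entries), so both shares were near or below the background. The median difference of members was -0.25 against -0.39 over all tested entries. Within WT 9 members rose (19.1%; background 20%) and 18 fell (38.3%; background 56%), and within KO 5 rose (10.6%; background 21.6%) and 29 fell (61.7%; background 49.2%). The direction of the moderate differences hung on the scaling: with median-of-ratios size factors 22 members rose (46.8%; 39.6% of all tested entries) and 9 fell (19.1%; also 39.6% of all). With quantile normalization 10 rose (21.3%; 37.5% of all) and 25 fell (53.2%; 40.2% of all). The same 6 members rose under all 3 scalings, the induced subunits with Psme1, Psmd4 and Psmg4. The same 9 fell under all of them: Psma5, Psmc1, Psmc6, Psmd5, Psmd11, Psmd14, Psme3, Psmg1 and Psmc3ip.

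**Figure D3:**
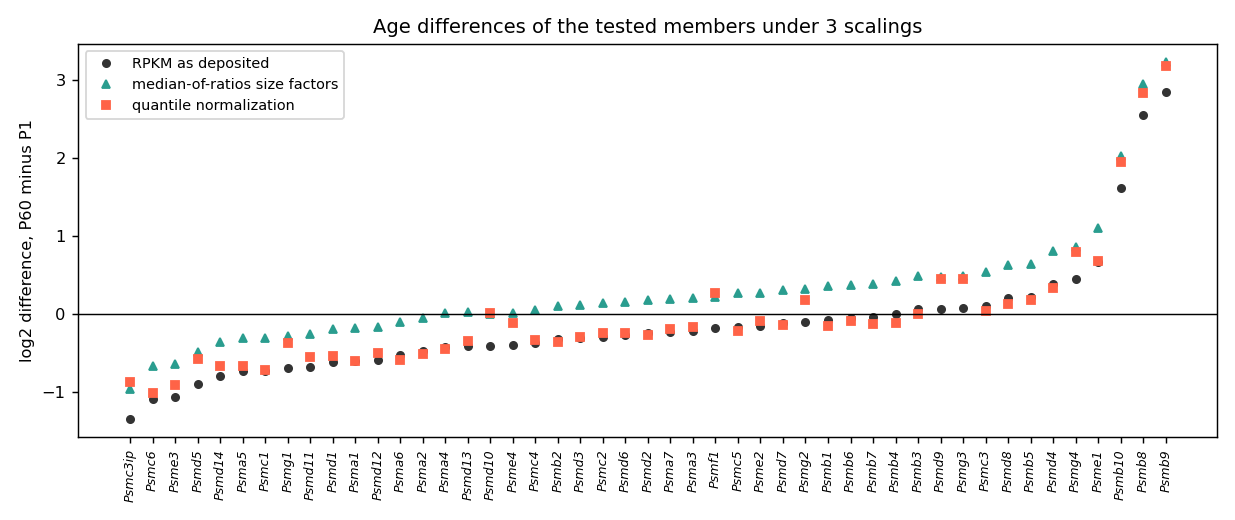
Log2 difference between P60 and P1 of the 47 tested members, ordered by the value on the deposited scale, under 3 scalings of the libraries. Psmb10, Psmb8 and Psmb9 stand at the top under each scaling (1.62 to 3.24), whereas members in the middle change sign between the deposited values and the median-of-ratios size factors.

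On the deposited scale 57.3% of all tested entries fell with age, and the median over all tested entries was -0.39. All 7 alpha subunits, which form the outer rings and the gate of the core, fell on this scale, with a median of -0.48. The largest difference was that of Psma5 (-0.74, SE 0.08, adjusted p = 9.53e-06 in limma), with 53.7 to 67.5 RPKM at P1 and 35.0 to 39.3 RPKM at P60. The smallest was that of Psma3 (-0.22, adjusted p = 0.0436), whose call ended without any one of 8 libraries (-0.25 to -0.19), all but WT replicate 3 and KO replicate 2 at P1. Of the 7 structural and constitutive catalytic beta subunits only Psmb5 rose and only Psmb2 fell (-0.33), with a median of -0.05. Within a library, the mean log2 level of these beta subunits was taken from that of the alpha subunits. The difference was -0.20 to -0.48 at P1 and -0.63 to -0.84 at P60. A factor per library leaves this gap between ages nearly unchanged, while quantile normalization can change it. WT replicate 3 at P1 had the most negative of the P1 values (-0.48) and the lowest RPKM of all 7 alpha subunits among WT newborns. With median-of-ratios size factors 1 alpha subunit rose and 1 fell, with a median of -0.05, while 6 of the 7 beta subunits rose, with a median of 0.38.

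In the 19S cap 12 of 17 subunits fell with age and 2 rose on the deposited scale, beside 57.3% and 24.3% of all tested entries. The median of the cap was -0.32, against -0.39 over all tested entries. Among the ATPases, which unfold substrates, Psmc6 fell most, from 63.0 to 77.5 RPKM at P1 to 29.2 to 35.1 RPKM at P60 (-1.10, SE 0.09, adjusted p = 1.72e-06 in limma). Psmc1 fell by 0.74 on the log2 scale, and Psmc3 differed by 0.10 and did not pass on the deposited scale, but rose by 0.53 with median-of-ratios size factors. Among the non-ATPase subunits Psmd14, the deubiquitinase of the lid, fell by 0.79, and Psmd11, a scaffold of the lid, fell by 0.69, from 38.5 to 44.8 RPKM to 25.6 to 28.1 RPKM. Psmd4, a receptor for ubiquitin chains, rose by 0.38 (adjusted p = 0.000818), with 64.9 to 74.3 RPKM at P1, 104 and 108 RPKM in WT and 73.5 and 89.1 RPKM in KO skin at P60. Its rise passed within WT (0.60, adjusted p = 0.000463) and not within KO (0.16, adjusted p = 0.201) on the deposited scale, while with median-of-ratios size factors it passed within both (1.12 and 0.50). With median-of-ratios size factors 5 of the 17 rose and 4 fell, beside 39.6% of all tested entries in each direction.

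**Figure D4:**
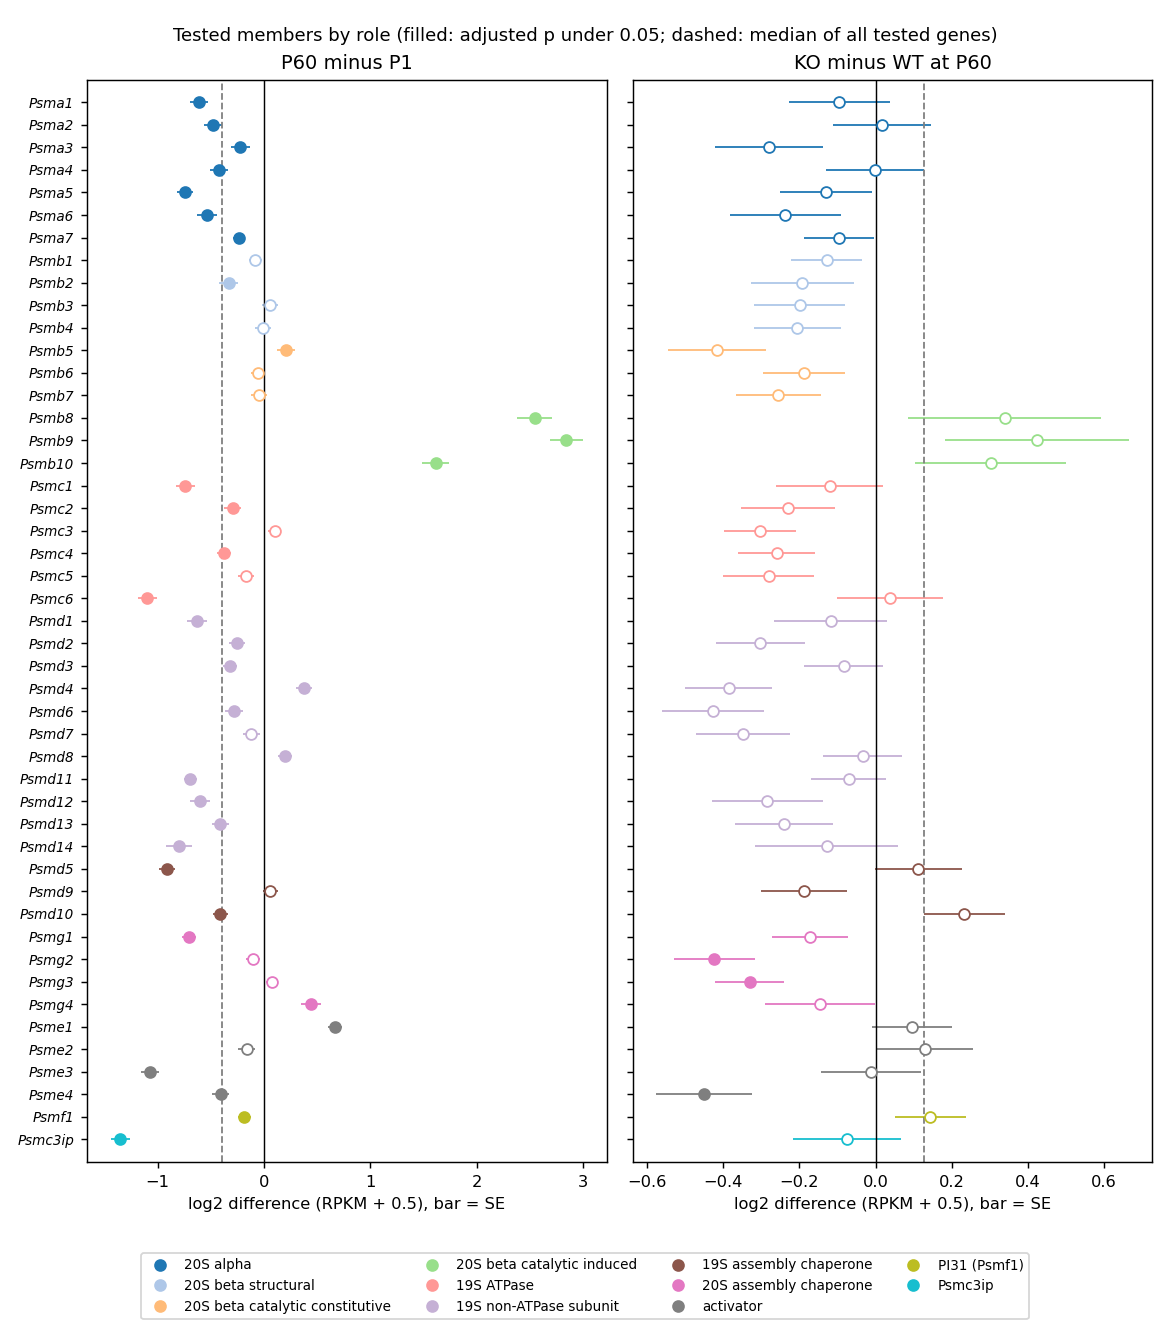
Log2 difference with SE of the 47 tested members, by role, for P60 minus P1 (left) and for KO minus WT at P60 (right), where filled points have an adjusted p under 0.05 and the dashed line is the median of all tested entries (-0.39 and 0.13). On the left the alpha subunits sit below 0 and the induced subunits at 1.62 to 2.84; on the right 37 of 47 members lie below 0 and 3 are filled.

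Of the 4 activator genes, 1 rose and 2 fell with age on the deposited scale, beside 24.3% and 57.3% of all tested entries. Psme1 and Psme2 neighbour each other on chromosome 14 and encode the partners of PA28; their difference from each other was not tested. Psme1 had 46.5, 52.2 and 49.8 RPKM in WT and 47.4, 48.9 and 46.2 RPKM in KO skin at P1, and 78.9 and 71.0 RPKM in WT and 75.9 and 84.5 RPKM in KO skin at P60. It rose by 0.67 (SE 0.07, adjusted p = 7.36e-06 in limma), with no overlap between the ages. Psme2 had 50.8, 57.0 and 44.2 RPKM in WT and 53.8, 49.9 and 53.2 RPKM in KO skin at P1, and 42.8 and 44.9 RPKM in WT and 51.0 and 45.0 RPKM in KO skin at P60. The ages overlapped, and its difference of -0.16 did not pass (adjusted p = 0.0926), while it was 0.27 with median-of-ratios size factors. Psme3, which encodes the nuclear PA28 gamma, had 48.2, 49.0 and 37.1 RPKM in WT and 47.8, 49.8 and 48.9 RPKM in KO skin at P1 and 22.4, 21.8, 22.0 and 21.8 RPKM in the 4 P60 libraries. It fell by 1.07 (SE 0.08, adjusted p = 1.44e-06), with no overlap. Psme4, which encodes the nuclear activator PA200, fell by 0.41 on the deposited scale, and its difference was 0.01 with median-of-ratios size factors.

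**Figure D5:**
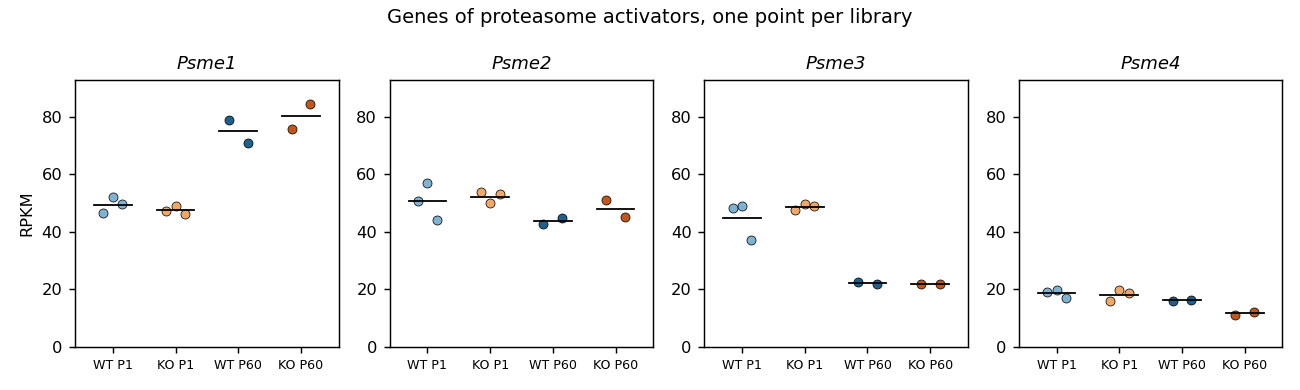
RPKM of the activator genes Psme1 to Psme4 in each library, by group, with a line at the group mean. Psme1 is higher at P60 than at P1 in all libraries (71.0 to 84.5 against 46.2 to 52.2 RPKM), Psme3 is lower (21.8 to 22.4 against 37.1 to 49.8 RPKM), and Psme4 is lowest in the KO libraries at P60 (11.2 and 12.2 RPKM).

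Among the chaperones of cap assembly, Psmd5 fell from 17.5 to 21.0 RPKM at P1 to 9.22 to 10.6 RPKM at P60 (-0.91, adjusted p = 1.69e-06 in limma). The X-linked Psmd10, which encodes gankyrin, fell by 0.41 on the deposited scale, a call that ended with median-of-ratios size factors and with quantile normalization. Psmd9 differed by 0.06 and did not pass on the deposited scale, and rose by 0.47 and 0.44 under the other scalings. Among the chaperones that assemble the core, Psmg1 fell from 15.1 to 17.7 RPKM to 9.11 to 10.6 RPKM (-0.70, adjusted p = 3.63e-06), whereas Psmg4 rose by 0.44. Psmf1, with 5.42 to 7.02 RPKM over all libraries, fell by 0.18 on the deposited scale and rose by 0.22 with median-of-ratios size factors; the former call ended (-0.17) without KO replicate 2 at P1 or replicate 1 of either genotype at P60. Psmc3ip, the meiotic gene that only shares the symbol, fell from 6.60 to 8.19 RPKM to 2.27 to 2.86 RPKM (-1.35), the lowest difference of the members on the deposited scale and with median-of-ratios size factors, whereas Psmc6 was lowest with quantile normalization. Beside these age differences, all 7 markers of cycling cells fell with age and all 14 markers of skeletal muscle rose (57.3% and 24.3% of all tested entries). The muscle sum went from 4493 to 9365 RPKM at P1 to 24020 to 63392 RPKM at P60. The part of these markers in the members' values was not tested.

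At P60, the members other than the induced subunits were mostly lower in KO than in WT skin, by small amounts. Of the 47 members 37 had a lower fitted value in KO, with a median of -0.15 against 0.13 over all tested entries, and with median-of-ratios size factors 42 of 47 were lower, with a median of -0.29 against 0.00. Both KO libraries lay below both WT libraries for 30 members (63.8%; 18.8% of all tested entries), and both lay above for 7 members (14.9%; 42.7% of all tested entries). Those 7 were Psmb8, Psmb9, Psmb10, Psmd5, Psmd10, Psme2 and Psmf1. In limma 3 members fell (6.38%; 2.91% of all tested entries) and 0 rose (8.21% of all tested entries). At an unadjusted p under 0.05 there were 12 members lower and 0 higher (25.5% of members), below the 32.1% of all tested entries that passed this in either direction. With median-of-ratios size factors these shares were 53.2% of members and 29.9% of all tested entries, and with quantile normalization 21.3% and 24.2%.

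The 3 members that fell in KO skin at P60 were the core assembly chaperones Psmg2 and Psmg3 and the activator gene Psme4. Psmg2 had 19.5 and 17.5 RPKM in WT and 12.7 and 14.8 RPKM in KO skin (-0.42, SE 0.11, adjusted p = 0.0401 in limma). Psmg3 had 11.3 and 11.8 RPKM in WT and 8.91 and 9.33 RPKM in KO skin (-0.33, SE 0.09, adjusted p = 0.0475). Psme4 had 15.9 and 16.4 RPKM in WT and 11.2 and 12.2 RPKM in KO skin (-0.45, SE 0.13, adjusted p = 0.0492). These calls stood close to the threshold. Over 20 other settings Psmg2 was called in 7, Psmg3 in 6 and Psme4 in 4, and leaving out any one of 8 of the 10 libraries left 0 members called. The exceptions were WT replicate 3 at P1, without which 8 members were called lower, and KO replicate 2 at P60, without which Psmg2, Psmb5 and Psmd4 were called. Over all tested entries 0 were called at P60 without KO replicate 2 at P1, without KO replicate 1 at P60 or with the P60 libraries alone, and this holds for every genotype call at P60 given here, those of markers and other lists included.

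Next in the order of p stood Psmd4 (-0.39, SE 0.11, adjusted p = 0.0576 in limma), the constitutive catalytic Psmb5 (-0.42, SE 0.13, adjusted p = 0.0634) and the ATPase Psmc3 (-0.30, SE 0.09, adjusted p = 0.0638), with 103 and 105 RPKM in WT and 80.6 and 87.2 RPKM in KO skin. None of these passed on the deposited scale, and with median-of-ratios size factors 10 members were called lower (21.3%; 7.07% of all tested entries), Psmd4, Psmb5 and Psmc3 among them. All 11 non-ATPase cap subunits had lower fitted values in KO, from -0.43 for Psmd6 to -0.03 for Psmd8, as did 5 of 6 ATPases and 13 of the 14 constitutive core subunits. The exceptions were Psmc6 (0.04) and Psma2 (0.02), which were -0.11 and -0.13 with median-of-ratios size factors. No cap subunit and no constitutive core subunit passed on the deposited scale.

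The induced subunits were higher in both KO libraries at P60, as were 42.7% of all tested entries, but none of the 3 passed. The log2 differences were 0.34 for Psmb8 (SE 0.25, adjusted p = 0.387 in limma), 0.42 for Psmb9 (SE 0.24, adjusted p = 0.254) and 0.30 for Psmb10 (SE 0.20, adjusted p = 0.321), and with median-of-ratios size factors they were 0.16 to 0.28. Psme1 and Psme2 differed by 0.10 and 0.13, and by -0.05 and -0.02 with median-of-ratios size factors. Psme3 differed by -0.01. Skeletal muscle markers had lower fitted values in KO for 14 of 14 genes, 1 of which (Myh1) passed, with sums of 55577 and 63392 RPKM in WT and 24020 and 41502 RPKM in KO skin. Fibroblast markers rose in KO for 7 of 7 genes, with sums of 4257 and 5279 RPKM in WT and 23137 and 9572 RPKM in KO skin. Of all tested entries 8.21% rose and 2.91% fell in KO at P60. Of 8 keratinocyte markers 0 passed in limma at P60, with 1 at an unadjusted p under 0.05. The part of muscle, fibroblasts and leukocytes in the members' genotype differences was not tested.

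At P1, no member differed between KO and WT skin in limma, nor did any of all tested entries (0%). At an unadjusted p under 0.05 there were 0 of 47 members and 130 of 14026 entries. The median difference of members was 0.04, and the range ran from -0.40 for Psmb9 (SE 0.20) and -0.32 for Psmb8 (SE 0.21) to 0.13 for Psme3. With array weights the value of Psmb8 turned to 0.09. After the catalytic and activator genes, the smallest p belonged to Psmf1 (-0.09), Psmd10 (-0.09), Psmd2 (0.08), Psmd11 (0.07) and Psma4 (0.09). Psmd2, a scaffold of the cap, had 81.6, 82.0 and 66.9 RPKM in WT and 82.1, 81.6 and 79.6 RPKM in KO skin. Psma4 had 98.3, 95.5 and 78.7 RPKM in WT and 91.2, 93.2 and 105 RPKM in KO skin. In both genes WT replicate 3 was the lowest library, and the genotypes overlapped.

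The genotype difference at P60 minus that at P1 was tested in the same fit. It passed for 0 members and for 0% of all tested entries in limma, with 12 members and 3214 entries at an unadjusted p under 0.05. The 3 members of the smallest p were Psmg3 (-0.38, SE 0.12, adjusted p = 0.125), Psmg2 (-0.41, adjusted p = 0.139) and Psmd4 (-0.45, adjusted p = 0.140). Of the 12, 10 were negative, and the 2 positive ones were Psmb9 (0.83, SE 0.31, adjusted p = 0.167) and Psmd10 (0.33, adjusted p = 0.200). The genotype difference of a member was thus not shown to differ between the ages.

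Genes that work around the proteasome were read from lists. Of 14 tested partners and regulators of the proteasome, 2 fell in KO skin at P60 and 0 rose, beside 2.91% and 8.21% of all tested entries. Zfand5, a zinc finger protein that stimulates the proteasome, had 21.9 and 19.5 RPKM in WT and 13.0 and 15.6 RPKM in KO skin (-0.52, adjusted p = 0.0469 in limma). AI314180, the adaptor also named Ecpas, had 18.2 and 17.3 RPKM in WT and 12.2 and 14.1 RPKM in KO skin (-0.42, adjusted p = 0.0475). With age 3 of the 14 rose and 8 fell on the deposited scale, beside 24.3% and 57.3% of all tested entries. Nfe2l1, the transcription factor that drives proteasome genes when the proteasome is impaired, rose by 0.82, from 40.3 to 45.7 RPKM at P1 to 66.5 to 84.4 RPKM at P60. Uchl5, a deubiquitinase of the cap, fell by 1.11. Of 14 genes for ubiquitin, its activating enzymes, shuttle factors and the Vcp unfoldase 0 passed in KO against WT at P60 in limma, with 4 at an unadjusted p under 0.05, and with age 3 rose and 8 fell. Both lists depend on scaling, since with median-of-ratios size factors 6 and 8 of their genes rose with age and 5 and 4 fell. On that scale 39.6% of all tested entries rose and 39.6% fell.

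Of 12 genes of MHC class I presentation, the pathway that the immunoproteasome feeds, 8 rose and 4 fell with age, with a median of 1.78. Of all tested entries 24.3% rose and 57.3% fell. The class I heavy chain gene H2-K1 rose by 3.66, from 31.0 to 57.5 RPKM at P1 to 508 to 640 RPKM at P60, and Nlrc5, the class I transactivator, rose by 2.39. The chaperones Calr, Canx and Pdia3, which serve all glycoproteins of the endoplasmic reticulum, and the peptidase Erap1 were the 4 that fell, of which 3 fell with each of the other scalings. At P60 all 12 had higher fitted values in KO, also under each of the other scalings, and 2 passed. On the deposited scale 8.21% of all tested entries rose in KO at P60, and the median over all of them was 0.13. B2m, the light chain, had 597 and 521 RPKM in WT and 986 and 883 RPKM in KO skin (0.74, adjusted p = 0.0355 in limma). Tapbpl, a peptide editor, had 5.88 and 6.85 RPKM in WT and 10.9 and 9.72 RPKM in KO skin (0.66, adjusted p = 0.0278).

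Of 11 tested genes of interferon gamma signalling, 1 fell in KO skin at P60, the receptor gene Ifngr2, with 34.4 and 32.3 RPKM in WT and 24.0 and 28.0 RPKM in KO skin (-0.36, adjusted p = 0.0482 in limma). The other 10 had higher fitted values in KO, none of which passed. Of all tested entries 2.91% fell and 8.21% rose in KO at P60. With age 6 rose and 3 fell on the deposited scale, beside 24.3% and 57.3% of all tested entries. Within WT 2 were higher and 5 lower (20% and 56% of all), and within KO 5 were higher and 2 lower (21.6% and 49.2% of all). On average 9 rose and 2 fell with median-of-ratios size factors, beside 39.6% of all tested entries in each direction. Ifng itself had 0 to 0.0508 RPKM in all libraries and was not tested. Of 5 ubiquitin ligases of muscle, which feed the proteasome in muscle wasting, 2 fell in KO skin at P60, again beside 2.91% of all tested entries. Trim63 had 63.6 and 64.9 RPKM in WT and 30.3 and 32.9 RPKM in KO skin (-1.01, adjusted p = 0.0384), and Asb2 had 41.8 and 46.3 RPKM in WT and 19.1 and 20.2 RPKM in KO skin (-1.14, adjusted p = 0.0469). The muscle markers given above were lower in the same libraries. With quantile normalization 0 genes of these lists were called at P60 in limma. With age 4 of the 5 ligases rose and 1 fell, beside 24.3% and 57.3% of all tested entries.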

How the data were processed

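Reads were aligned to mm10 with TopHat2 2.1.0 and expression was calculated in Partek, per the submitters' processing notes. The sources used here do not give the gene annotation or the strand setting. RPKM values were deposited by the authors in a gene table. The authors also deposited the count of alignments and the run of each library, and 36131011 to 74916106 alignments stand behind the values. The deposited analysis of variance table was not used here. All 50 members were found in GENCODE M21, whose gene models can differ from those used upstream.

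The main test was that of limma 3.58.1 (R 4.3.3) on log2(RPKM + 0.5), a scale that understates changes of low genes. Entries with at least 1 RPKM in at least 2 libraries were kept. The model held 4 group means over all 10 libraries, with a variance trend, and the Benjamini-Hochberg adjustment ran over 14026 entries within each contrast, with 0.05 as threshold. At P60 the p-values thus also rest on the spread at P1. For the median entry the half-width of the 95% interval of the log2 difference was 0.284 at P1 and 0.348 at P60. P-values measure the spread between these samples, since the labels do not say how samples relate to litters. Ratios of subunits were compared by two-sided exact permutation tests over libraries. Procedures were tested on simulated data.

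Members, gene lists and marker lists were chosen with earlier results of these data known. Library values were given for the catalytic and activator genes and for the members of the smallest p in each contrast, 5 for P1, P60 and age and 3 for the interaction, and for the list genes called between genotypes. A few genes beyond this rule (Psma3, Psma5, Psmc1, Psmd14, Psmg4, Psmb2, H2-K1, Nlrc5, Nfe2l1 and Uchl5) were named after their values were seen. Of 15 partner genes 14 were found by symbol or alias. Alternatives were pseudocounts of 0.1 and 1 RPKM, no filter or 5 RPKM, median-of-ratios size factors, quantile normalization, array weights, no variance trend, the libraries of one age alone, a replicate block and leaving out each library.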

Additional observations from a re-analysis of the deposited data

How the results depend on the processing

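The age differences of Psmb8, Psmb9 and Psmb10 and of their ratios to the constitutive partners kept their direction and their side of the threshold under all alternatives run. Depth was not varied. The number of members called lower in KO at P60 (3) hung on the setting: it was 10 with median-of-ratios size factors, 1 with no expression filter or no variance trend, 0 with quantile normalization, array weights or P60 libraries only, and 0 to 8 when leaving out a library, 8 without WT P1 replicate 3 and 0 without any other but KO P60 replicate 2. Same-numbered samples did not all deviate together at P1 (correlations of -0.166, 0.244 and -0.259). At P60 the correlation was 0.236, a single value, since with 2 libraries per group both pairs must give the same. The numbers were not taken to pair samples, and with the replicate block 0 members were called at P60. With median-of-ratios size factors the counts higher and lower with age were 22 and 9, within WT 29 and 4 and within KO 12 and 12. Within WT these were 61.7% and 8.51% of members, beside 35.4% and 35.8% of all tested entries. Within KO they were 25.5% of members in each direction, beside 34.1% of all tested entries. The medians of the members with these size factors were -0.29 at P60 and 0.18 for age. On the deposited scale the P60 median was -0.18 to -0.10 when leaving out a library. With quantile normalization 8 rose within KO (17% of members, beside 32.1% of all tested entries). The cause of these shifts was not tested. With median-of-ratios size factors some called age differences turned sign. Psma7 went from -0.23 to 0.19 and Psmf1 from -0.18 to 0.22, each called in both directions. Other members called lower, such as Psmd2 (-0.25 to 0.18), turned positive without a call. The sign changes listed next were of differences that had not passed on the deposited scale. Most of these were small, though Psmb8 at P1 stood at -0.32. At P1 array weights gave Psma4 -0.0439, Psmb6 -0.0602, Psmb8 0.0891, Psmb10 0.0332, Psme1 0.0365 and Psme2 -0.026, quantile normalization gave Psmb6 -0.0014 and median-of-ratios size factors gave Psmb7 0.0073. The size factors gave Psme1 -0.0539 and Psme2 -0.0213 at P60 and Psmb6 0.37, Psmb7 0.38 and Psme2 0.27 for age. Leaving out a library gave ranges across 0 for the joint ratio of Psmb9 (-0.0324 to 0.22) and the P1 ratio of Psmb10 (-0.18 to 0.0916). The same held at P1 for Psmd2 (-0.0124 to 0.13), Psma4 (-0.0082 to 0.15), Psmb5 (-0.0328 to 0.12), Psmb6 (-0.0508 to 0.054), Psmb7 (-0.0648 to 0.0501), Psmb10 (-0.23 to 0.0378) and Psme2 (-0.0423 to 0.14), and at P60 for Psme3 (-0.0326 to 0.0071).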
